A study of Acipenser dabryanus with 12 samples.

Results

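The genes described here are those of the spleen of Yangtze sturgeon whose difference between a soybean oil and a fish oil diet had one sign before a meal and the opposite sign after it. They were chosen by the spleen values themselves. A gene had a mean of at least 20 TPM (a level corrected for transcript length and scaled to the same total in each library) over the 4 spleen libraries, and its TPM + 1 differed at least 2-fold between the diets before the meal and at least 2-fold the other way after it. Of 280408 assembled genes, 4266 reached that mean, and 205 of these met the rule. Fish oil was the higher diet before the meal in 186 of them, called fish-first genes below, and soybean oil in the other 19, called soybean-first genes. Levels given as a pair are soybean oil first, then fish oil, and pre-meal and post-meal stand for the 2 feeding states.

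RNA sequencing covered brain, liver and spleen of 6-month-old Acipenser dabryanus, a freshwater fish of the Yangtze River, kept on one of the diets for 7 weeks. The labels call fish sampled 1 h before the daily meal longterm feed and those sampled 1 h after it postprandial feed. The 4 groups of each tissue were thus soybean oil longterm feed, fish oil longterm feed, soybean oil postprandial feed and fish oil postprandial feed, with 1 library each and 12 libraries in all. No group is an unfed or standard-diet control. Each diet was given in 1 pond, so that diet and pond cannot be told apart, and meal and hour of sampling cannot be told apart either. Whether a library holds RNA of 1 fish or of several is not stated in the labels, nor whether the tissues of a group came from the same fish, and their protocol describes dissection of the liver only.

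The spleen of fishes filters blood, stores red cells and houses lymphocytes and macrophages, and in many species it also makes blood cells. It therefore carries genes of several cell lineages at once, and it lies close to the gut and liver in the body cavity. Dietary fish oil supplies long-chain omega-3 fatty acids, and soybean oil supplies mainly linoleic acid, an omega-6 fatty acid. Both kinds enter cell membranes, and a meal changes the flow of lipids and other nutrients through the blood within hours. Sturgeons are polyploid fishes, so that one ancestral gene can be present as several similar copies. The files pair the gene IDs of the assembly with no gene names and hold no sequences. Members are therefore described by their levels, their tissues and the IDs they share a component with, and the label spleen could not be checked against marker genes.

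The 12 libraries were of one kind, each summing to 1000000 TPM within rounding, and no 2 of them held identical values. Pearson's r of log2(TPM + 1) across all genes was 0.739 to 0.860 between libraries of one tissue and at most 0.732 between tissues. Sequencing depth cannot be read from TPM, so counting intervals are not given. With 1 library for each combination in a tissue, no single fold within a tissue has a replicate check, and the spleen values are given as a description, with no test.

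Fish-first genes were the main direction. Their median level in spleen was 17.2 TPM with soybean oil and 54.9 TPM with fish oil before the meal, and 46.4 TPM with soybean oil and 12.6 TPM with fish oil after it. The 2 libraries that stood high were thus fish oil before and soybean oil after the meal, and in 182 of the 186 genes both lay above both of the others. In 127 genes the lower of the high libraries was still at least 2-fold above the higher of the low ones. In a bulk tissue library such a level cannot tell fewer cells of a type from less RNA per cell. These genes made up 4.36% of the 4266 genes of at least 20 TPM, and the soybean-first genes 0.445%; the rule fixes both shares. After quantile normalization, which gives all 12 libraries of the 3 tissues the same distribution, the same limits gave 151 and 40 genes.

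Read along the meal, the same values mean that most fish-first genes were higher after it with soybean oil and lower after it with fish oil. The rule used these values and so largely sets the opposite meal directions and the order of the libraries. The counts that follow are a description only. The median log2 fold of after over before the meal was 1.34 with soybean oil and -2.08 with fish oil. At least 2-fold differences were found in 138 genes with soybean oil, all higher after the meal, and with fish oil 175 genes were lower and 1 was higher after the meal. The library of fish oil after the meal was the lowest of the 4 in 141 genes and that of soybean oil before the meal in 45. Fish oil before the meal was the highest in 121 and soybean oil after the meal in 65. Together the 186 genes summed to 4873 and 14963 TPM pre-meal and to 13323 and 3612 TPM post-meal, of a total of 1000000 TPM in each library.

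**Figure D1:**
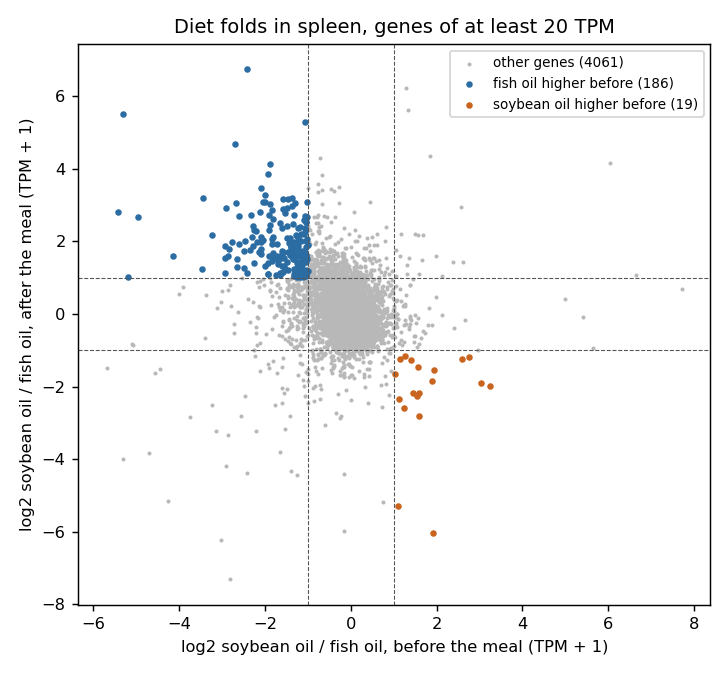
Log2 ratio of soybean oil to fish oil (TPM + 1) before the meal (x axis) and after it (y axis) for the 4266 genes with a spleen mean of at least 20 TPM, 1 point a gene; dashed lines mark 2-fold. The 186 fish-first genes (blue) fill the upper left corner and the 19 soybean-first genes (orange) the lower right one.

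The folds of fish-first genes were often moderate. The smaller of a gene's 2 diet folds had a median of 2.50, and it reached 4-fold in 23 genes. TRINITY_DN121739_c2_g6, with the largest smaller fold, was listed at 0 and 38.9 TPM pre-meal and 44.8 TPM and 0 post-meal. It thus had a value above 0 in the 2 high libraries and was listed at 0 in the 2 low ones. In brain this gene was at 15.3 and 4.19 TPM pre-meal and 0 and 0.10 TPM post-meal, and in liver at most at 6.21 TPM. TRINITY_DN128058_c4_g1 stood at 4.68 and 60.7 TPM pre-meal and 59.9 and 5.63 TPM post-meal. On the TPM + 1 scale this was 10.9-fold before and 9.18-fold after the meal, and the 2 high values differed little from each other, as did the 2 low ones. In brain the same gene was at 32.7 and 115 TPM pre-meal and 7.21 and 135 TPM post-meal, and in liver at 1.79 and 10.6 TPM pre-meal and 7.80 and 20.9 TPM post-meal, so fish oil was the higher diet there in both feeding states.

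The most abundant fish-first genes had lower levels than the leading soybean-first ones, and the highest spleen mean among the 186 was 289.8 TPM. TRINITY_DN126662_c0_g1 was at 171 and 462 TPM pre-meal and 426 and 99.6 TPM post-meal. TRINITY_DN125959_c4_g1 was at 168 and 379 TPM pre-meal and 282 and 119 TPM post-meal. In both genes the order of the 4 libraries was that of 99 of the 186 members: fish oil before, soybean oil after, soybean oil before and fish oil after the meal. The first of these genes was at 56.6 and 101 TPM pre-meal and 27.6 and 10.6 TPM post-meal in brain, where fish oil was the higher diet before the meal and the lower one after it, as in spleen. TRINITY_DN126662_c0_g1 was at 84.4 and 134 TPM pre-meal and 126 and 163 TPM post-meal in liver, with fish oil the higher diet both times. TRINITY_DN125959_c4_g1 was at 22.2 and 8.59 TPM pre-meal and 5.84 and 16.95 TPM post-meal in brain, and at 8.57 and 4.75 TPM pre-meal and 10.45 and 7.22 TPM post-meal in liver. Soybean oil was thus the higher diet for it before the meal in both tissues, the opposite of its order in spleen.

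Soybean-first genes were few but included far more abundant ones. Their median level was 81.8 TPM with soybean oil and 28.6 TPM with fish oil before the meal, and 18.4 and 184 TPM after it. The library of fish oil after the meal was the highest in 12 of the 19 genes and that of soybean oil before the meal in the other 7, and both lay above the other 2 libraries in 15 genes. The median log2 fold of after over before the meal was -1.50 with soybean oil and 2.47 with fish oil, with 10 genes at least 2-fold lower after the meal in the first and 15 at least 2-fold higher in the second. Here too the rule largely sets the meal directions and the order of the spleen libraries. TRINITY_DN124134_c3_g1, with the largest smaller fold, stood at 81.8 and 7.68 TPM pre-meal and 9.83 and 42.1 TPM post-meal. TRINITY_DN134438_c5_g1 stood at 12 and 2.48 TPM pre-meal and 3.62 and 302 TPM post-meal. The first of these was high in 2 libraries, whereas the second was high in 1 library, fish oil after the meal, and at most at 12 TPM in the other 3. In brain TRINITY_DN124134_c3_g1 was at 14.7 and 1.75 TPM pre-meal and 74.4 and 42.1 TPM post-meal, so soybean oil was the higher diet there both times, and in liver at 13.6 and 12.7 TPM pre-meal and 14.6 and 3.37 TPM post-meal. TRINITY_DN134438_c5_g1 was at most at 3.29 TPM in brain and 4.05 TPM in liver. No soybean-first gene reached 4-fold in both feeding states.

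A pair of very abundant genes made up most of the soybean-first sum. TRINITY_DN142540_c9_g1 was at 11260 and 1669 TPM in spleen pre-meal and 16329 and 37415 TPM post-meal. TRINITY_DN111081_c5_g1 was at 7887 and 1301 TPM pre-meal and 10938 and 25733 TPM post-meal. Fish oil before the meal was the low library in both, and the other 3 stood at several times its level. In these 2 genes soybean oil after the meal was higher than soybean oil before it, so the 2 high and the 2 low libraries of the rule overlapped. After quantile normalization the smaller log2 fold of TRINITY_DN111081_c5_g1 was 0.97, below the 2-fold limit, so it was then no longer a member. The pair held 1.91% and 0.297% of all spleen TPM pre-meal and 2.73% and 6.31% post-meal.

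The levels of the pair stayed in a narrow ratio. The ratio of TRINITY_DN142540_c9_g1 to TRINITY_DN111081_c5_g1 lay between 1.03 and 1.61 over the 12 libraries, while the first gene itself ran from 864 to 37415 TPM. Of the 19 soybean-first genes, 4 had the spleen order of this pair, namely the pair itself, TRINITY_DN131435_c2_g3 and TRINITY_DN124295_c0_g1, the latter 2 singled out after their values were seen. TRINITY_DN131435_c2_g3 was at 350 and 93.9 TPM in spleen pre-meal and 618 and 2227 TPM post-meal. TRINITY_DN124295_c0_g1 was at 70.0 and 22.9 TPM pre-meal and 119 and 330 TPM post-meal. All 4 had their highest liver value in the library of fish oil before the meal, the one that was lowest for them in spleen. For TRINITY_DN142540_c9_g1 the liver values were 864 and 8032 TPM pre-meal and 1161 and 3033 TPM post-meal, with fish oil the higher diet both times. For TRINITY_DN131435_c2_g3 they were 19.3 and 202 TPM pre-meal and 29.5 and 71.2 TPM post-meal. The diet fold of these genes thus kept one sign in liver over the meal and changed it in spleen.

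**Figure D2:**
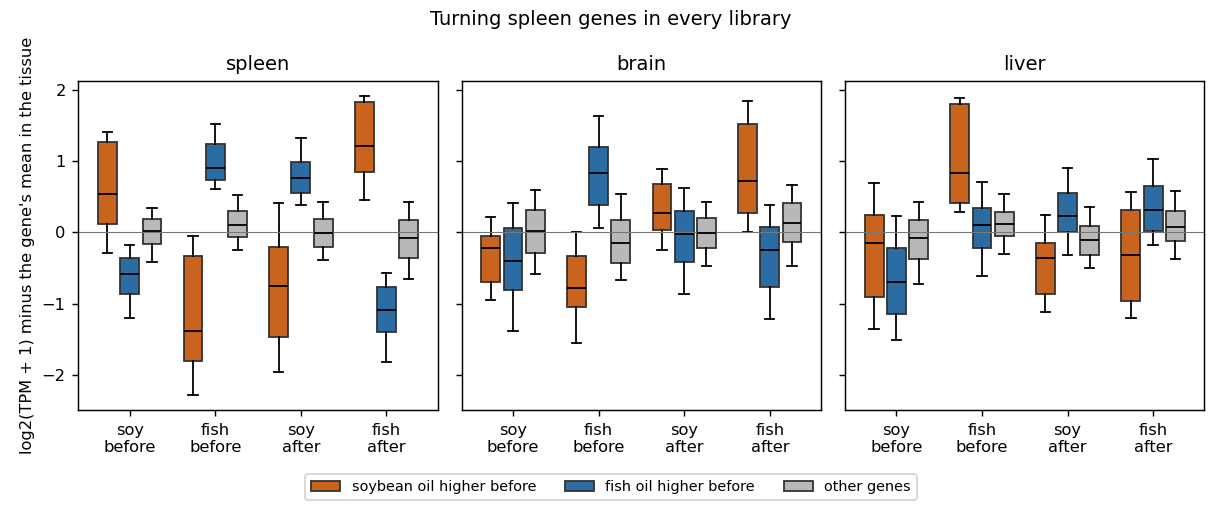
Log2(TPM + 1) minus the gene's own mean in the tissue (y axis) in each of the 12 libraries (x axis, by diet and meal) for soybean-first genes (19), fish-first genes (186) and the other genes with a spleen mean of at least 20 TPM; boxes span the quartiles with the median as a line, and whiskers run from the 10th to the 90th percentile of genes. The spleen contrast is set by the rule; in brain the fish-first boxes are highest with fish oil before the meal, and in liver they are lowest with soybean oil before the meal.

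Fish-first genes were detected outside the spleen about as often as all genes of that spleen level. Fish-first genes had median levels of 33.0, 18.4 and 11.5 TPM over the means of spleen, brain and liver; over all 4266 genes, the members among them, the medians were 36.2, 29.1 and 11.4 TPM. The spleen was the tissue of the highest mean in 130 fish-first genes, brain in 35 and liver in 21. These shares were 69.9%, 18.8% and 11.3%, beside 64.0%, 30.1% and 5.84% of all 4266 genes, in which the limit on the spleen mean favours the spleen. Of the soybean-first genes, 16 were highest in spleen, 3 in brain and 0 in liver. A mean of at least 1 TPM was found in brain for 97.8% and in liver for 95.7% of the 186, beside 98.9% and 96.1% of the 4266. At least 8-fold higher levels in spleen than in both other tissues occurred in 12 fish-first genes, or 6.45%, and in 6 of the 19 soybean-first genes, or 31.6%, beside 4.45% of the 4266.

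The level in spleen relative to the other tissues varied widely among the members of both directions. TRINITY_DN116035_c7_g4, a soybean-first gene, was at 191 and 62.7 TPM in spleen pre-meal and 18.4 and 137 TPM post-meal, and it was listed at 0 in all 8 brain and liver libraries. TRINITY_DN112129_c5_g5, the soybean-first gene with the lowest ratio of spleen to the other tissues, was at 42.4 and 4.34 TPM in spleen pre-meal and 9.34 and 37.4 TPM post-meal, and it had means of 23.4, 43.5 and 18.4 TPM in spleen, brain and liver. Among fish-first genes, TRINITY_DN125959_c4_g1 leaned most to the spleen, with a mean of 237 TPM there against 13.4 TPM in brain and 7.75 TPM in liver. At the other end stood TRINITY_DN126317_c1_g1, the most abundant gene of the liver, which was the 1 member at least 8-fold higher in liver than in brain and spleen. In spleen it was at 44.8 and 348 TPM pre-meal and 41.4 and 13.5 TPM post-meal. The assembly held 1029 genes with the same liver lead and a liver mean of at least 10 TPM, TRINITY_DN126317_c1_g1 among them. In spleen these summed to 2513 and 3848 TPM before the meal and to 2469 and 2018 TPM after it. Their sum, which includes the values of that member, was thus highest in the spleen library of fish oil before the meal. The part of these liver genes in the fish-first values was not tested. Without TRINITY_DN126317_c1_g1, the fish-first genes summed to 4828 and 14615 TPM before the meal and to 13282 and 3598 TPM after it.

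**Figure D3:**
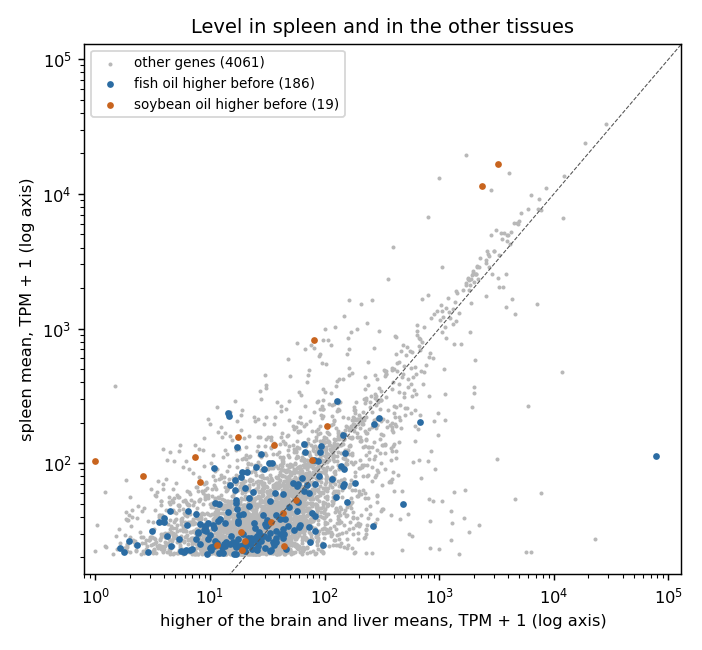
Spleen mean (y axis, TPM + 1, log axis) against the higher of the brain and liver means (x axis, TPM + 1, log axis) for the 4266 genes, 1 point a gene; the dashed line marks equal levels. Members lie among the other genes on both sides of the line, with the 2 most abundant soybean-first genes at 16668 and 11465 TPM in spleen and 1 fish-first gene at 78296 TPM in liver.

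Brain and liver, which the rule did not use, were compared in a fit over their 8 libraries with terms for tissue, diet, meal and diet by meal (limma on log2(TPM + 1), Benjamini-Hochberg adjustment over 73754 genes). The fit included 184 fish-first and 18 soybean-first genes; the other 3 members were below 1 TPM in all but at most 1 of these libraries. Of the fish-first genes, 65 were called for a higher brain level and 14 for a higher liver level, and of the soybean-first genes 4 and 1. Over all genes tested 43.2% were called higher and 7.5% lower in brain, and over the tested genes with a spleen mean of at least 20 TPM 66.1% and 5.66%. For fish-first genes the shares were 35.3% and 7.61%. TRINITY_DN126317_c1_g1 was at 36.3 to 106 TPM in brain and at 54590 to 105492 TPM in liver, which is -10.40 ± 0.37 as a log2 fold with its SE (limma, adjusted p = 1.41e-05). TRINITY_DN114576_c1_g1, the soybean-first gene with the lowest adjusted p, was at 40.2 to 66.0 TPM in brain and at 10.1 to 24.7 TPM in liver, which is 1.90 ± 0.33 as a log2 fold with its SE (limma, adjusted p = 0.00442). In spleen this gene was at 80.1 and 35.6 TPM pre-meal and 27.1 and 65.9 TPM post-meal. After quantile normalization the members called higher and lower in brain went from 69 and 15 to 26 and 24. The calls over all genes tested moved as well, from 31869 and 5535 of 73754 to 14196 and 12376 of 74043. Among the tested genes of at least 20 TPM in spleen they went from 2802 and 240 of 4237 to 1767 and 397 of 4240.

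In brain the fish-first genes were also higher with fish oil before the meal. Their median log2 diet fold of soybean oil over fish oil was -1.30 there, and it was 0.15 over the 4266 genes. At least 2-fold higher brain values with fish oil before the meal were found in 113 of 186 fish-first genes, or 60.8%, beside 9.66% of the 4266. At least 2-fold higher values with soybean oil were found in 5, or 2.69%, beside 8.72%. The brain library of fish oil before the meal was the highest of the 4 in 133 of the 186 genes, 71.5%, and in 20.8% of all 4266.

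After the meal the brain difference of fish-first genes was small. Their median log2 fold was 0.31, against -0.13 over the 4266 genes. At least 2-fold higher values with soybean oil occurred in 30 genes, or 16.1%, beside 4.38%, and with fish oil in 15, or 8.06%, beside 5.58%. The full change of sign seen in spleen, at least 2-fold in both feeding states, was present in brain in 22 fish-first genes. That was 11.8%, beside 1.62% of the 4266. The opposite signs were found in 2, 1.08%, beside 1.29%. Among the 22, TRINITY_DN124737_c1_g3 had the largest smaller fold in brain. It was at 3.36 and 54.2 TPM in brain pre-meal and 8.09 TPM and 0 post-meal. In spleen the same gene was at 11.2 and 54.8 TPM pre-meal and 31.7 and 7.26 TPM post-meal, and in liver it was at 6.80 TPM and 0 pre-meal and 3.10 and 12.97 TPM post-meal, where fish oil was the lower diet before the meal.

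In liver the fish-first genes shared the difference before the meal in part. Their median log2 fold before the meal was -0.78, against -0.20 over the 4266 genes. After quantile normalization these medians were -0.34 and 0.14, and 37 fish-first genes, or 19.9%, were at least 2-fold higher with fish oil, beside 5.84%. As deposited, 75 of the 186, or 40.3%, were at least 2-fold higher with fish oil, beside 13.2%. At least 2-fold higher values with soybean oil before the meal were found in 14, or 7.53%, beside 3.54%. The liver library of soybean oil before the meal was the lowest of the 4 in 129 fish-first genes, 69.4%, and in 36.4% of the 4266. After the meal the median was -0.14, near the -0.19 of all 4266 genes. Then 16 genes, or 8.6%, were at least 2-fold higher with soybean oil, beside 4.24% of the 4266, and 20 with fish oil, or 10.8%, beside 7.55%. The full change of sign was present in 5 fish-first genes, 2.69%, beside 1.13%. The opposite signs were found in 2 fish-first genes, 1.08%, beside 0.563%. Of the 19 soybean-first genes, 2, or 10.5%, had the fish-first signs in liver, beside the same 1.13%. Of the 5 fish-first genes with the spleen signs, TRINITY_DN135575_c0_g6 had the largest smaller fold in liver, with 0 and 26.4 TPM pre-meal and 21.3 and 3.67 TPM post-meal. In spleen this gene was at 0 and 35.6 TPM pre-meal and 290.4 and 141 TPM post-meal, so it was one of the 4 fish-first genes in which the high and low spleen libraries overlapped. Its brain values were 29.0 and 18.7 TPM pre-meal and 0 and 60.7 TPM post-meal, the opposite order. Before the meal, 55 of the 186 genes were at least 2-fold higher with fish oil in brain and in liver alike, which is 29.6%, beside 3.66% of the 4266.

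Soybean-first genes, 19 in number, gave another picture outside the spleen. In brain their median log2 diet fold was 0.51 before the meal and -0.004 after it. At least 2-fold higher values with soybean oil before the meal were found in 3 genes, 15.8%, which is not far from the 8.72% of all 4266, and at least 2-fold higher values with fish oil after the meal in 7, 36.8%, beside 5.58%. The change of sign seen in spleen was present in brain in 2 of the 19, 10.5%, beside 1.29%. TRINITY_DN132370_c1_g6 had the largest smaller fold of these, at 4.31 TPM and 0 in brain pre-meal and 3.25 and 18.2 TPM post-meal; in spleen it was at 102 and 37.7 TPM pre-meal and 88.4 and 213 TPM post-meal. In liver the difference before the meal ran against that in spleen. The median log2 fold there was -1.22, 10 of the 19 genes, 52.6%, were at least 2-fold higher with fish oil, beside 13.2%, and 1, or 5.26%, was at least 2-fold higher with soybean oil, beside 3.54%. The median was -0.70 after quantile normalization. After the meal 4, or 21.1%, were at least 2-fold higher with soybean oil, beside 4.24%, and 6, or 31.6%, with fish oil, beside 7.55%. The change of sign seen in spleen was present in liver in 1 of the 19, 5.26%, beside 0.563%. The opposite signs were found in liver in 2, 10.5%, beside 1.13%, and in brain in 0, beside 1.62%. The liver library of fish oil before the meal was the highest of its tissue in 11 of the 19, or 57.9%, beside 31.8% of the 4266.

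**Figure D4:**
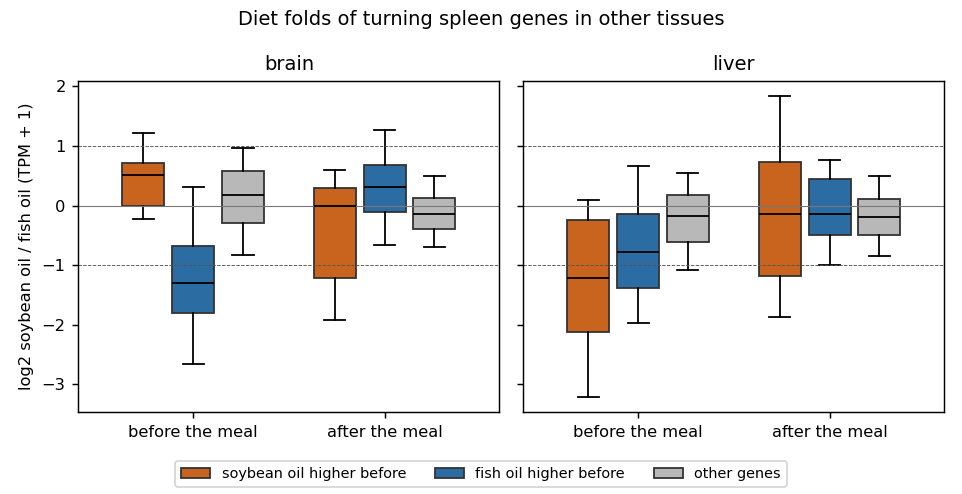
Log2 ratio of soybean oil to fish oil (TPM + 1, y axis) in brain and liver before and after the meal (x axis) for soybean-first, fish-first and the other genes of at least 20 TPM in spleen; boxes span the quartiles with the median as a line, whiskers run from the 10th to the 90th percentile of genes, and dashed lines mark 2-fold. Fish-first genes have medians of -1.30 in brain and -0.78 in liver before the meal, and 0.31 and -0.14 after it.

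A change of sign of at least 2-fold folds in all 3 tissues was found in 1 gene of each direction. TRINITY_DN115683_c0_g1, the soybean-first gene with the largest smaller fold of this kind in liver, stood in spleen at 43.3 and 17.3 TPM pre-meal and 7.43 and 18.0 TPM post-meal. In brain it was at 22.6 and 9.15 TPM pre-meal and 6.74 and 34.3 TPM post-meal. In liver it was at 22.7 and 4.69 TPM before the meal, and listed at 0 with soybean oil and at 14.3 TPM with fish oil after it. Soybean oil was thus the higher diet before the meal and fish oil after it in each tissue. In brain and liver together it was the 1 gene of the 4266 with this pattern, or 0.0234%, and 1 of the 24 genes, or 0.563%, with it in liver. Its diet by meal term in the fit was -4.70 ± 0.93 on the log2 scale (SE, limma adjusted p = 0.785), with the same sign in both tissues.

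TRINITY_DN105545_c0_g1, singled out after its values were seen, was the fish-first gene with the change of sign in all 3 tissues. Its spleen values were 47.4 and 246 TPM pre-meal and 175 and 50.8 TPM post-meal. In brain it was at 4.19 and 15.4 TPM pre-meal and 32.7 and 12.5 TPM post-meal. In liver it was at 2.69 and 7.11 TPM pre-meal and 18.7 TPM and 0 post-meal. Over the 4266 genes, 4 had this pattern in brain and liver together, or 0.0938%.

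No member passed the threshold for diet in brain and liver. In limma, 0 of 73754 genes, or 0%, were called for the diet by meal term, for the diet fold before the meal or for that after it, with 3 residual degrees of freedom. At an unadjusted p under 0.05 these numbers were 4162, 6594 and 2442. The lowest adjusted p of any member was 0.785 for the diet by meal term, 0.475 for diet before the meal and 0.771 for diet after it. At that unadjusted level, 48 of the 184 fish-first genes had a higher diet fold after the meal than before it, 26.1%, beside 4.54% of all genes tested and 3.82% of those of at least 20 TPM in spleen. Before the meal 67 were higher with fish oil, 36.4%, beside 8.22% of all genes tested and 7.58% of those of at least 20 TPM in spleen. After the meal 6 were higher with soybean oil, 3.26%, beside 1.34% and 0.92%. Single libraries moved the fish-first medians in this fit. The median diet by meal term of the 184 genes was 1.12 on the log2 scale, against 0.22 over all genes tested. Without the brain library of fish oil before the meal it was 0.65, against 0.20, and without that of fish oil after it 0.62, against 0.24. Without the liver library of soybean oil before the meal it was 0.91, against 0.27, and without that of soybean oil after it 0.97, against 0.26. Without the liver library of fish oil before the meal it was 1.63, against 0.27, and without that of fish oil after it 1.67, against 0.28. The fish-first median diet fold before the meal was -1.05. It became -0.58 without the brain library of fish oil before the meal and -0.79 without the liver library of soybean oil before it. Over all genes tested these medians were -0.31, -0.24 and -0.35. After quantile normalization the 67 became 44 of 183, while over all genes tested 6066 of 73754 became 2199 of 74043. The fish-first median diet fold after the meal was 0.11. It became -0.08 without the liver library of soybean oil after the meal and 0.59 without that of fish oil after it. Over all genes tested these medians were -0.06, -0.06 and -0.01. In the soybean-first direction, 1 of the 18 soybean-first genes passed that level for each of the 3 contrasts, beside 1.11%, 0.716% and 1.97% of all genes tested. Among the tested genes of at least 20 TPM in spleen these shares were 2.97%, 3.26% and 2.57%. In the opposite direction 1 of the 18 passed for the diet by meal term, 0 for diet before the meal and 1 for diet after it. Single libraries moved this group too. The median diet by meal term of the 18 was 0.37 on the log2 scale. It was 1.97 without the brain library of fish oil before the meal, and -0.83 without the liver library of that group. Their median diet fold before the meal, -0.49, became -1.62 and 0.75. The genes of a list share libraries, so these counts carry no p of their own.

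TRINITY_DN121098_c1_g3, singled out after its values were seen, had the lowest unadjusted p of the members for the diet by meal term. It stood in spleen at 12.4 and 74.1 TPM pre-meal and 32.1 and 8.94 TPM post-meal. In brain it was at 6.74 and 41.1 TPM pre-meal and 27.2 and 20.4 TPM post-meal, and in liver at 2.77 and 20.7 TPM pre-meal and 16.2 and 13.8 TPM post-meal. Fish oil was the higher diet before the meal and soybean oil after it in each tissue, but after the meal brain and liver differed by less than 2-fold. For the diet by meal term no member had a limma adjusted p under 0.785. In another contrast of the fit, the diet fold of TRINITY_DN121098_c1_g3 before the meal was -2.49 ± 0.28 on the log2 scale (SE, limma adjusted p = 0.475).

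The level of fish-first genes went with the number of genes detected in a library. In spleen, 62193 and 60507 genes had at least 1 TPM in the 2 libraries where these genes were high, fish oil before and soybean oil after the meal. The 2 libraries where they were low had 48131 and 47226. The rule sets the spleen pattern of members, so its match with detection there is a description only. The soybean-first medians ran the other way in spleen, with -1.39 in fish oil before and 1.21 in fish oil after the meal. In brain the library of fish oil before the meal had the most such genes, 78832, and soybean oil before the meal the fewest, 52435; fish-first genes had their highest median there in the first, 0.84 on the log2 scale above each gene's brain mean, and their lowest in the second, at -0.40. In liver soybean oil before the meal had the fewest, 29749, and the lowest fish-first median, -0.69, and fish oil after the meal the most, 46726, and the highest median, 0.31. The middle 2 libraries followed the same order in brain but not in liver. The 4266 genes as a whole had medians between -0.10 and 0.12 in the 4 spleen libraries, between -0.13 and 0.12 in brain and between -0.10 and 0.12 in liver. In the libraries of fish oil before the meal the soybean-first median was -0.79 in brain and 0.83 in liver. The part of detection in the fish-first values was not tested.

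**Figure D5:**
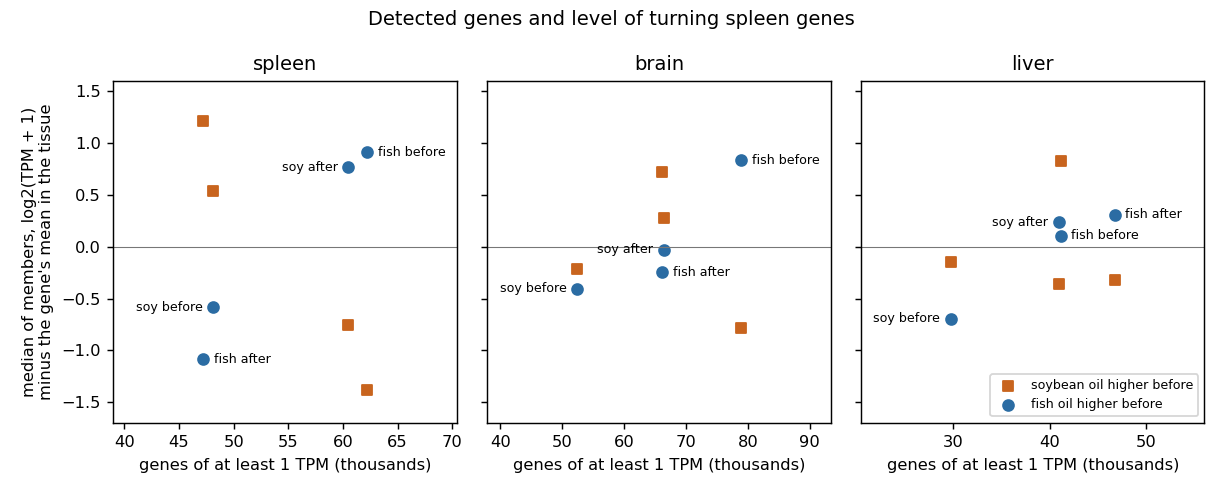
Median over members of log2(TPM + 1) minus the gene's mean in the tissue (y axis) against the number of genes of at least 1 TPM in the library (x axis), 1 point per library and direction; text names the diet and meal beside the fish-first points. In each tissue the library with the most detected genes has the highest fish-first median and the one with the fewest the lowest. The spleen contrast is set by the rule.

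Assembly IDs can divide one gene between them, so the component, a group of IDs the assembler kept together, was summed as well. Other IDs shared the component of 132 of 186 fish-first genes, or 71.0%, and of 9 of 19 soybean-first genes, or 47.4%, beside 71.2% of the 4266. With the TPM of all IDs in its component added up, the change of sign held in 161 fish-first and 16 soybean-first genes, among them 107 of the 132 and 6 of the 9. For a member alone in its component the sum is its own value, so there the change of sign held by construction. In the others the sum still includes the member's own spleen values, which the rule used, so these counts are a description only. The 2 directions shared 0 components, so no member was offset by a member of the same component in the other direction. The 186 fish-first genes fell into 179 components, 7 of which held 2 members each. TRINITY_DN121098_c1_g4, a partner of the gene above, was at 12 and 29.5 TPM in spleen pre-meal and 33.8 and 13.1 TPM post-meal.

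Genes on either side of the limits differed little. The fish-first genes just inside the 2-fold limit, TRINITY_DN109501_c0_g1 and TRINITY_DN103151_c0_g1, had smaller folds of 2.007 and 2.011, and those just outside, TRINITY_DN142501_c6_g3 and TRINITY_DN139326_c1_g1, 1.9993 and 1.998. The soybean-first genes just inside, TRINITY_DN135509_c1_g1 and TRINITY_DN112467_c1_g4, had 2.03 and 2.14, and those just outside, TRINITY_DN132859_c4_g2 and TRINITY_DN138080_c7_g2, 1.98 and 1.92. The lowest spleen mean of a fish-first gene was 20.1 TPM, and the highest of a gene left out for its mean alone was 19.99 TPM. For soybean-first genes these values were 21.5 and 19.3 TPM.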

How the data were processed

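TPM per assembled gene in 12 libraries (1 per tissue, diet and meal) was used as deposited by the authors. Per the labels' protocols, RNA was extracted with TRIzol, 3 samples per group and time went into TruSeq libraries, and the cleaned paired-end reads were assembled with Trinity. The quantification tool is not given in the sources used here. The labels speak of 45 libraries, and those beyond the 12 were not analysed here. The unit was read from the values, whose column totals are equal. As TPM is relative to the library total, sequencing depth is not known.

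Members were found by the rule given above, on TPM + 1. Brain and liver were tested with limma 3.58.1 (R 4.3.3; trend, robust) on log2(TPM + 1) for genes with 1 TPM or more in 2 or more of the 8 libraries, with 5 coefficients. The fit was also run on simulated data with known changes and noise that was independent for every value. Such data hold no effect shared by the genes of a library, so the run cannot show how the fit handles those. SE is that of limma. Python 3.11.15, pandas 2.3.3, numpy 2.4.6, scipy 1.17.1 and matplotlib 3.10.9 served for the rest. Named IDs per direction are those with the 2 largest smaller folds, the 2 highest spleen means, the largest same change of sign in brain and in liver, the highest and lowest spleen lead, the lowest adjusted p of brain against liver, and the neighbours of the limit. Members, lists and rules were chosen with earlier results of these data known. Replicates are absent, so the p-values rest on how far brain and liver disagree over the diet and meal groups, once a term for tissue is fitted. A difference of ponds or fish that both tissues share cannot be told apart from diet there.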

Additional observations from a re-analysis of the deposited data

Results flagged for a closer look

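For the named members and the summary measures, libraries far from the other 3 of their tissue were looked for by Dixon's gap ratio at its 95% limit. One was found in 5 of 63 groups of 4 examined, where chance gives about 1 in 20 for independent normal values; the named members were picked for large folds or ratios in spleen, brain or liver, so this is no fair reference for them. TRINITY_DN134438_c5_g1 stood at 302 TPM in the spleen library of fish oil after the meal and at 2.48 to 12 TPM in the other 3, and at 4.05 TPM in the liver library of fish oil before the meal, being listed at 0 in the other 3 livers. TRINITY_DN126317_c1_g1 stood at 348 TPM in the spleen library of fish oil before the meal and at 13.5 to 44.8 TPM in the others. TRINITY_DN124737_c1_g3 stood at 54.2 TPM in the brain library of fish oil before the meal and at 0 to 8.09 TPM in the others. TRINITY_DN124134_c3_g1 stood at 3.37 TPM in the liver library of fish oil after the meal and at 12.7 to 14.6 TPM in the others.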

How the results depend on the processing

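The number of genes with a change of sign depended on the limits, and its split on the scaling. Quantile normalization gave 40 soybean-first genes in place of 19 and 151 fish-first genes in place of 186, with 18 and 147 of the members kept; fish-first genes stayed the larger group. A spleen mean of at least 5 TPM gave 149 and 1145 genes, one of at least 100 TPM 9 and 17, and a 4-fold limit 0 and 23. A pseudocount of 0.1 (20 and 199), component sums (17 and 200) and median scaling, chosen after seeing the data (28 and 145), kept both counts within 1.5 times. Quantile normalization moved the median spleen log2 fold of the 4266 genes before the meal from -0.124 to 0.059, and that of liver from -0.200 to 0.144; the fish-first medians before the meal were then -1.13 in brain and -0.34 in liver. Over the settings tried, the same change of sign was found in 11.8% to 13.4% of fish-first genes in brain and 1.61% to 2.69% in liver. In soybean-first genes these shares were 10.5% to 15.8% and 5.26% to 7.14%. The settings included members of at least 5 TPM in the tissue, also chosen after seeing the data. After quantile normalization the fish-first shares were 12.9% in brain, beside 1.69% of the 4266, and 1.61% in liver, beside 0.82%. After median scaling they were 13.4%, beside 1.99%, and 1.61%, beside 1.08%. For soybean-first genes quantile normalization gave 15.8%, beside 1.78%, and 5.26%, beside 0.63%. The 3 diet tests in brain and liver called 0 members in each of their 14 alternatives. The members called for a higher brain and a higher liver level, 69 and 15, became 26 and 24 after quantile normalization and 39 and 7 with no filter. Over all genes tested, 31869 and 5535 of 73754 became 14196 and 12376 of 74043 after quantile normalization. With no filter they became 21150 and 3620 of 235333. Quantile normalization gave the brain and liver libraries the same distribution. The median log2 fold of brain over liver over all genes tested was 0.79 before it and -0.004 after it. Leaving out 1 brain or liver library gave 50 to 73 higher and 9 to 18 lower calls among the members. The lower calls fell to 9 without either tissue's library of soybean oil after the meal or of fish oil after the meal. Over all 73754 genes tested these fits gave 22898 to 27085 higher and 4023 to 4862 lower calls, both fewer than with every library. Among the 4237 tested genes of at least 20 TPM in spleen they gave 2342 to 2672 and 182 to 217, beside 2802 and 240. The smaller log2 fold of TRINITY_DN111081_c5_g1 fell to 0.97 after quantile normalization and that of TRINITY_DN135575_c0_g6 to 0.94 after median scaling, both just below the limit. The cause of these changes was not tested. The spleen rule needs all 4 spleen libraries, so none could be left out there.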

Other observations

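In the tissues the rule did not use, members varied more than the 4266 genes as a whole, the members among them. The groups were not matched on level in these tissues. A wider range leaves room for more 2-fold differences of either sign, which the shares given above do not separate. The range of log2(TPM + 1) over the 4 brain libraries had a median of 1.80 in fish-first genes and 1.75 in soybean-first genes, against 0.96 over the 4266 genes of at least 20 TPM in spleen. Over the 4 liver libraries the medians were 1.51, 2.34 and 0.79. Above 0 in all 12 libraries were 163 of the 186 fish-first genes, 14 of the 19 soybean-first genes and 93.9% of the 4266.

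Genes below 5 TPM took 11.6% and 11.5% of all TPM in the 2 spleen libraries where fish-first genes were high, and 9.16% and 9.02% in the other 2. In brain this share was 15.5% with fish oil before the meal and 10.2% with soybean oil before the meal, and after the meal it was 12.5% with soybean oil and 12.2% with fish oil.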
